A study of Mus musculus with 16 samples.

Results

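Bone marrow-derived macrophages and resident microglia share the parenchyma of irradiated brains, and the comparison described here asks how far both populations differ in gene expression after a peripheral endotoxin challenge. Recipients were wild type C57BL/6J mice irradiated with 950 cGy and reconstituted with congenic wild type bone marrow carrying the CD45.1 allele. Each of 4 chimeras (mice 1 to 4) received 2.5 mg/kg lipopolysaccharide (LPS), a component of the Gram-negative bacterial wall. Brains were taken after 12 h. From each brain, CD11b+ Ly6C/G- cells of low CD45.1 (engrafted cells) and of low CD45.2 (host microglia) were sorted and sequenced separately. The comparison rests on 8 of the 16 libraries of the table. The other 8 libraries come from engrafted and host cells of 4 further chimeras (mice 5 to 8) without LPS, called unchallenged below. All recipients were irradiated, host microglia therefore being radiation-exposed cells. As the study describes the experiment, LPS was given 9 months after transplantation, whereas the labels list 3.5 or 9 months without assigning either to single libraries. The gate holds bulk populations of a surface phenotype: any donor-derived CD11b+ cell with low CD45.1 and no Ly6C/G signal enters the engrafted sort.

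Microglia descend from yolk sac progenitors and maintain themselves in the brain, whereas cells that engraft after irradiation descend from adult hematopoietic stem cells. LPS is sensed by the Toll-like receptor TLR4 with its co-receptors CD14 and MD-2. The receptor signals through MyD88 to NF-kappaB, which drives cytokines and chemokines, and through TRIF to IRF3 and type I interferon, which drives antiviral genes. After an intraperitoneal injection, brain macrophages also respond to cytokines that reach them from the periphery.

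The table held reads on exons of 24411 genes. The 4 engrafted LPS libraries had 395283 to 960725 reads on genes and the 4 host LPS libraries 677590 to 1024405, with a read in 10652 to 11976 and 11748 to 11967 genes, respectively. Levels are given as counts per 1000000 reads on genes after TMM scaling (CPM). A level of 3 reads corresponds to 3.29 to 8.73 CPM in engrafted and 2.92 to 4.19 CPM in host libraries. Engrafted library 4 stood apart, with the fewest reads and a mean correlation of 0.866 with the other engrafted LPS libraries, against 0.920 to 0.925 for those. It also held 9910 CPM of red blood cell transcripts, against 5.12, 110.5 and 6.59 CPM in engrafted libraries 3, 2 and 1. Counts of genes are therefore given with and without it.

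Both sorts carried a macrophage profile. The 10 macrophage and microglia markers summed to 39270 to 60950 CPM in engrafted and 55960 to 63850 CPM in host LPS libraries, and 1 of the 10, the fractalkine receptor Cx3cr1, was called by the rule below. Engrafted libraries 1 to 3 (39270, 44860 and 42750 CPM) lay below every host library, and only engrafted library 4 reached the host range. Of the 10 markers, 9 were lower in engrafted cells by log2 fold change and 1 was higher. Monocyte markers summed to 1452 to 3012 CPM in engrafted and 68.1 to 107.5 CPM in host libraries, without overlap, and all 10 were called higher in engrafted cells. Without LPS the same sums were 380.8 to 511.8 CPM in engrafted and 25.7 to 44.5 CPM in host libraries. Of the 10 monocyte markers, 5 had enough reads to be tested without LPS, and all 5 were called higher in engrafted cells. Members near 0 in host cells, such as Chil3, entered the test through the engrafted libraries, and the count of 10 leans in part on this filter. Of all genes tested after LPS, 6.73% were called higher in engrafted cells. Neutrophil markers summed to 2807 to 4844 against 163.4 to 312.2 CPM. Most of the engrafted sum came from Lcn2, which activated macrophages also express, and 5 of the 14 neutrophil markers were at 0 in all host libraries. S100a9, a calcium-binding protein abundant in neutrophils, was at 145, 2.4, 147 and 172 CPM in engrafted libraries 1 to 4 and at 1.13, 0, 0 and 1.4 CPM in host libraries 1 to 4. It was thus nearly absent from engrafted library 2. The neutrophil collagenase Mmp8 was at 40.6, 24.0, 24.3 and 17.5 CPM in engrafted cells and had no read in host microglia. It was at least 33.1-fold higher when 3 reads over the host group are taken as the limit. Of 4 neutrophil markers tested 3 were called, and 5 were called without engrafted library 2 or without any 1 of host libraries 1 to 4. These counts lean in part on the same filter, as Mmp8 was tested through its engrafted reads. Astrocyte markers, mainly Slc1a3, summed to 32.9 to 55.3 CPM in engrafted and 181.9 to 256.9 CPM in host libraries. Markers of endothelial cells (25.6 to 36.2 against 9.03 to 22.6 CPM) did not overlap either, with 0 of 1 tested member called and 1 called without engrafted library 3 or host library 3. Sums for dendritic cells, B cells, T and NK cells and oligodendrocytes overlapped between both sorts, as did those for neurons (8.73 to 26.4 against 8.38 to 11.9 CPM). Red blood cell markers ranged from 5.12 to 9910 CPM in engrafted and from 7.78 to 1314 CPM in host libraries. Of 4 tested members 0 were called, and 2 were called higher in host microglia without engrafted library 4. Brains were perfused, and the gate was set to cells of low CD45.1 without Ly6C/G signal. It was meant to leave out Ly6C+ monocytes and cells of high CD45, and its purity was not tested here. How many donor-derived blood monocytes passed this gate, all of which would carry CD45.1, was not tested. In bulk libraries fewer cells of a type and less RNA per cell cannot be told apart.

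**Figure D1:**
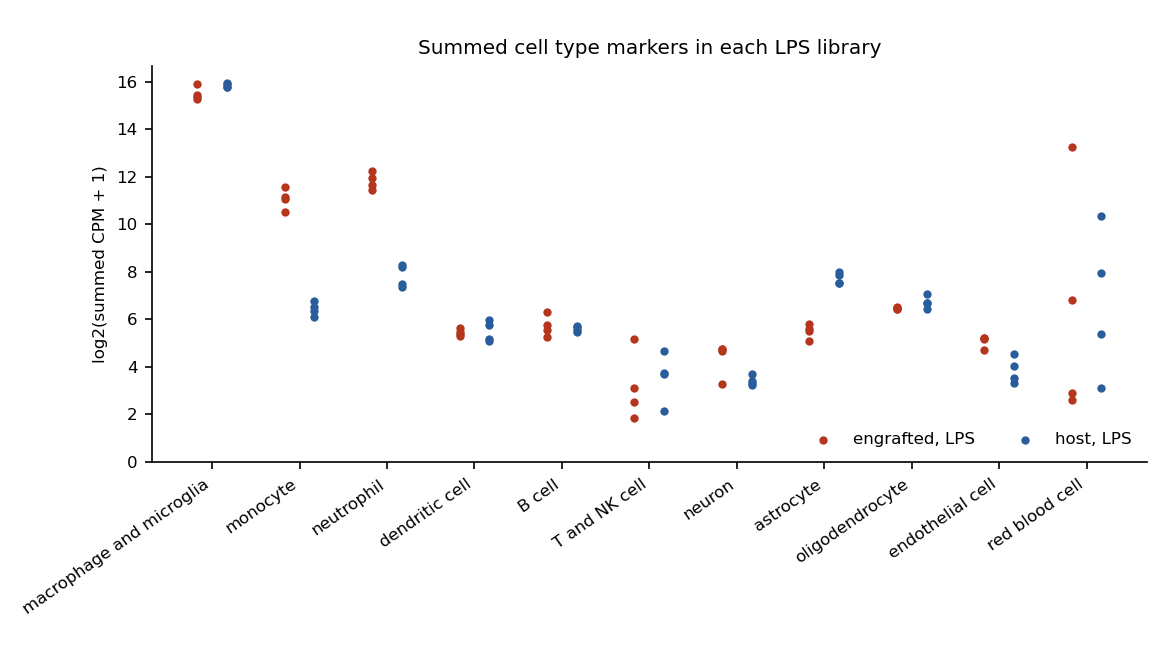
Summed level of the markers of 11 cell types in each LPS library, as log2 of the summed CPM plus 1 on the y axis, with 4 engrafted libraries in red and 4 host libraries in blue. Monocyte sums (1452 to 3012 against 68.1 to 107.5 CPM) and neutrophil sums (2807 to 4844 against 163.4 to 312.2 CPM) were higher in every engrafted library, and red blood cell sums were scattered in both sorts.

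Of 7843 genes with enough reads to be tested, 868 (11.1%) were called different between engrafted and host cells after LPS. A call here needs a log2 fold change beyond 1 in either direction together with an adjusted p under 0.05. Positive log2 fold changes denote a higher level in engrafted cells. Each is given as value ± standard error, taken as the absolute log2 fold change divided by the square root of the test's F statistic. The adjusted p is the Benjamini-Hochberg value of edgeR's quasi-likelihood test over all genes. A higher level in engrafted cells was found for 528 genes (6.73%) and a higher level in host microglia for 340 (4.34%). The levels of 1624 genes (20.7%) did not overlap between the 4 engrafted and the 4 host libraries, 779 of the called genes among them. Conversely, 6929 genes (88.3%) were within 2-fold, and the median absolute log2 fold change was 0.318. Large differences were mostly in 1 direction, since 100 genes were more than 16-fold higher in engrafted cells and 13 more than 16-fold higher in host microglia. Scaling by library totals in place of TMM shifted the median of all genes from -0.014 to -0.162. The split was then 448 genes towards engrafted cells and 471 towards host microglia. The share of calls higher in engrafted cells was thus 60.8% with TMM and 48.7% with totals. Without engrafted library 4 the counts were 565 and 404, and 808 of the 868 genes were still called. Shares of gene lists called are to be read beside the 11.1% of all tested genes.

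**Figure D2:**
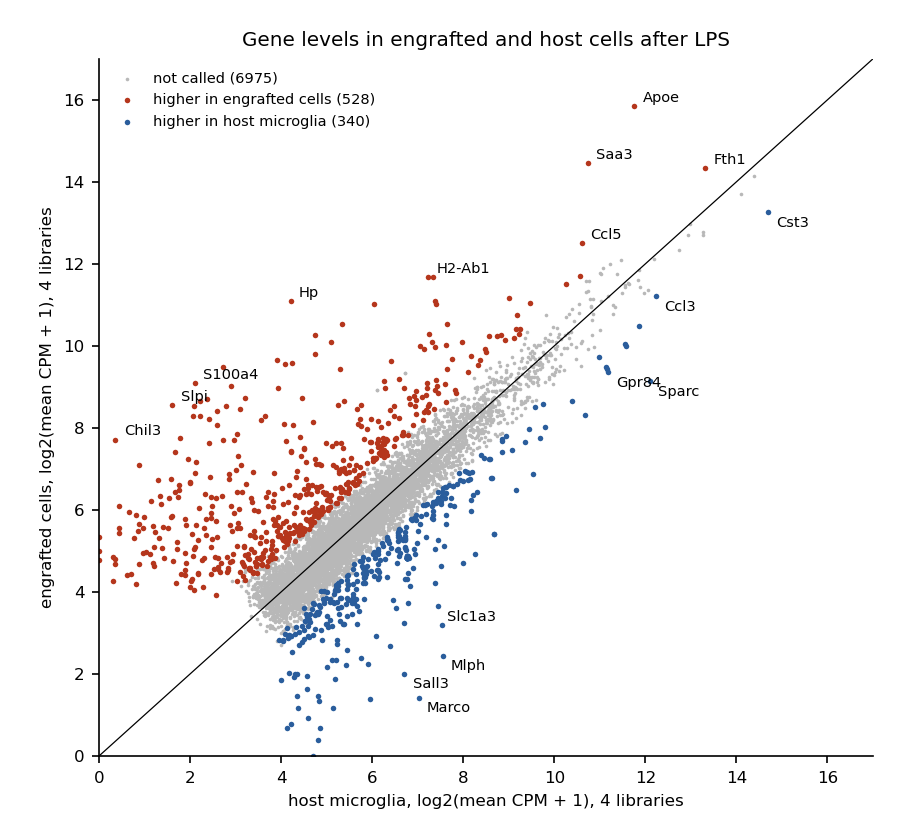
Mean level of each of 7843 tested genes in the 4 host LPS libraries (x axis) and the 4 engrafted LPS libraries (y axis), both as log2 of the mean CPM plus 1, with the line of equality. Genes higher in engrafted cells (528, red) spread far from the line at low host levels, whereas most of the 340 genes higher in host microglia (blue) lay nearer to it.

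The genes with the largest folds towards engrafted cells included secreted proteins, a calcium-binding protein and a monocyte surface antigen. Chil3, a chitinase-like lectin of activated macrophages (chr3:105950472-105970482, minus strand, mm9), was at 313, 126, 184 and 212 CPM in engrafted libraries 1 to 4 and had 1 read in host library 1 and none in the other host libraries. The ratio of the pooled levels, used for genes with 1 to 3 reads in the lower group, was 735 (counting interval 131 to 29070), a 95% interval that covers counting error only. Slpi, a secreted inhibitor of leukocyte proteases (chr2:164179806-164182243, minus strand), was at 551, 441, 314 and 189 CPM in engrafted and 2.26, 0.973, 3.56 and 1.4 CPM in host libraries, a log2 fold change of 7.45 ± 0.43 (adjusted p = 1.16e-09). In every engrafted library both genes exceeded every host library more than 10-fold. The calcium-binding protein S100a4 was at 709, 580.2, 635 and 247 against 1.13, 1.95, 5.94 and 4.19 CPM, with a log2 fold change of 7.36 ± 0.43 (adjusted p = 1.29e-09). Haptoglobin, Hp, which binds free hemoglobin, reached 3916, 2519, 1253 and 1059 CPM in engrafted cells and 26.0, 3.89, 17.8 and 22.3 CPM in host microglia (log2 fold change 6.99 ± 0.51, adjusted p = 1.85e-08). Its engrafted levels were higher in mice 1 and 2 than in mice 3 and 4, and none came near the host range. Ly6c2, the antigen recognised as Ly6C on inflammatory monocytes, was at 850.5, 858, 703 and 428 against 3.39, 5.84, 3.56 and 9.78 CPM (log2 fold change 6.98 ± 0.35, adjusted p = 2.8e-10). The sort was set to exclude cells with Ly6C/G surface signal. Plac8, a small cysteine-rich protein of myeloid cells, was at 618, 390.4, 386 and 209.5 against 1.13, 1.95, 5.94 and 5.59 CPM (log2 fold change 6.80 ± 0.42, adjusted p = 2.45e-09). The guanine deaminase Gda had 3 reads in all host libraries together and was at 196, 112, 138 and 99.0 CPM in engrafted cells, a pooled ratio of 167 (counting interval 56.8 to 813). Reads of Ly6c2 and its close paralogue Ly6c1 may be split uncertainly between both.

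By absolute difference in level, apolipoprotein Apoe and serum amyloid Saa3 were the leading transcripts of the engrafted cells. Apoe, the main lipid carrier of the brain, was at 43290, 48900, 49190 and 93090 CPM in engrafted libraries 1 to 4 and 2725, 3830, 2806 and 4477 CPM in host libraries 1 to 4, a log2 fold change of 4.09 ± 0.28 (adjusted p = 7.62e-09). Engrafted library 4 was highest, and the lowest engrafted value was still above all host values. Saa3, an acute-phase apolipoprotein made by activated macrophages, was at 28950, 23500, 19370 and 18610 against 2318, 2935, 751 and 809.9 CPM (log2 fold change 3.74 ± 0.38, adjusted p = 1.21e-06). Lcn2, a siderophore-binding protein that withholds iron from bacteria, was at 4292, 3879, 2340 and 2692 against 236, 247, 83.2 and 75.4 CPM (log2 fold change 4.37 ± 0.38, adjusted p = 1.4e-07). For both Saa3 and Lcn2, host libraries 1 and 2 were higher than host libraries 3 and 4. The list of acute-phase and granule proteins holds 25 genes, of which 17 were tested. All 17 were called higher in engrafted cells, with a median log2 fold change of 4.78 beside -0.014 over all genes tested. A gene is tested if 1 population has enough reads. Members near 0 in host cells, such as Chil3 and Slpi, thus entered through the engrafted libraries, and the share and median lean in part on this filter. Without LPS 13 of 14 tested members were called higher in engrafted cells, with a median of 3.48. These medians rest on different sets of members. The neutrophil and monocyte protein S100a8 was at 139, 19.2, 106 and 75.7 CPM against 6.77, 14.6, 7.13 and 2.79 CPM in host libraries (log2 fold change 3.37 ± 0.51, adjusted p = 0.000104). Its engrafted library 2 was close to the highest host library. Monocyte marker sums were also higher in engrafted cells, and Chil3 and Plac8 belong to both lists. The part of monocytes in this list was not tested. Reads of Lyz1 and Lyz2, members of the list, may be shared between these near-identical genes.

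Promoters of the leading genes in both directions are shown to give the sequence context of the most contrasting transcripts. Each is the 250 bases before the RefSeq start of transcription in GRCm38.p6, a later build than that of the counts, 5′ to 3′ on the gene's strand. Capitals mark matches to motifs, searched on both strands for AP-1 (TGANTCA), NF-kappaB (GGANTTTCC), the interferon-stimulated response element ISRE (TTTCNNTTT), GAS (TTCNNNGAA) and PU.1 (GAGGAAGT). The Chil3 promoter (chr3:106167565-106167814, minus strand) held 1 GAS match starting 172 bases before the start, and those of Slpi (chr2:164356508-164356757, minus strand), Marco (chr1:120505025-120505274, minus strand) and Mlph (chr1:90914850-90915099, plus strand) held none of the 5 motifs. A match is a description of letters and not a binding site.
Chil3: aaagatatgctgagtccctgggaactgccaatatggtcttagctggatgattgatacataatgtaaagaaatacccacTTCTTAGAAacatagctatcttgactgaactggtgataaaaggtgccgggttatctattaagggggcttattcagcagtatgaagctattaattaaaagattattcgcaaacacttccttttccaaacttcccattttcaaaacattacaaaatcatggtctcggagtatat
Slpi: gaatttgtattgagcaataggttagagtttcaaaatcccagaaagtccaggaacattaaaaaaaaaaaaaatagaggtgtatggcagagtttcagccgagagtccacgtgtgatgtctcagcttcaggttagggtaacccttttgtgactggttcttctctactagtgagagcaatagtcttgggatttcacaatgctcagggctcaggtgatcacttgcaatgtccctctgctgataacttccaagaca
Marco: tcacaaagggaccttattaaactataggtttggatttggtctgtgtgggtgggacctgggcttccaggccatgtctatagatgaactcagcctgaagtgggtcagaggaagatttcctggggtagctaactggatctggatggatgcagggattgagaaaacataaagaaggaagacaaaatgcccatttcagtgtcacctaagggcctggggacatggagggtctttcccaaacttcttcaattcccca
Mlph: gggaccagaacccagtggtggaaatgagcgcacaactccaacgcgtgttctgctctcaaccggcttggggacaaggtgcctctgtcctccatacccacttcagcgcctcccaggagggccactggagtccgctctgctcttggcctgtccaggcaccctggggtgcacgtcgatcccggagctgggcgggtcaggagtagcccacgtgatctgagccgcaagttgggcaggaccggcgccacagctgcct
Promoters were found for 6157 of the 7843 tested genes, and the AP-1 motif stood in 4.32% of these, in 8.47% of those of genes higher in engrafted cells and in 5.19% of those of genes higher in host microglia. The NF-kappaB motif stood in 1.23%, 2.42% and 2.6%, GAS in 6.01%, 7.75% and 4.33%, and PU.1 in 2.66%, 3.63% and 4.76%, respectively.

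The genes with the largest folds towards host microglia included a scavenger receptor, a zinc finger factor, proteases and an integrin subunit. Marco, which binds bacteria and modified lipoproteins (chr1:122371115-122401661, minus strand, mm9), was at 208, 254, 33.3 and 20.9 CPM in host libraries and 5.49, 1.2, 0 and 0 CPM in engrafted libraries 1 to 4, a log2 fold change of -5.87 ± 0.92 (adjusted p = 0.000146) and of -7.60 without engrafted library 1. Host libraries 1 and 2 were several-fold higher than host libraries 3 and 4, and none overlapped the engrafted range. Without LPS, Marco was at 0, 0.962, 1.56 and 3.02 CPM in host libraries and had no read in the engrafted libraries. Melanophilin, Mlph, a linker of vesicles to myosin, was at 177, 153, 228 and 187 CPM in host and 1.1, 10.8, 0 and 5.82 CPM in engrafted libraries (log2 fold change -5.41 ± 0.42, adjusted p = 3.66e-08, and -6.80 without engrafted library 2). The galactosyltransferase B3galt5 was at 41.8, 41.8, 68.9 and 89.4 against 1.1, 0, 2.56 and 2.91 CPM (log2 fold change -5.26 ± 0.52, adjusted p = 7.83e-07). All host values of Mlph and B3galt5 exceeded all engrafted values. The serine protease Klk8, the metalloprotease Adamts1, the integrin subunit Itgb3 and the glutamate transporter Slc1a3 had log2 fold changes of -4.38, -4.02, -3.89 and -3.85, with host means of 184 ± 23.9, 83.3 ± 30.3, 59.1 ± 9.94 and 175 ± 30.2 CPM (SD, n = 4). None of these 4 genes exceeded 16.7 CPM in any engrafted library. By absolute difference, the protease inhibitor cystatin C, Cst3, led with 27410, 27000, 25650 and 25720 CPM in host and 8032, 9921, 8801 and 12650 CPM in engrafted libraries (log2 fold change -1.42 ± 0.18, adjusted p = 1.97e-05). The matricellular protein Sparc was at 4574, 5155, 4189 and 3597 against 481, 687, 708 and 367 CPM (log2 fold change -2.95 ± 0.23, adjusted p = 5.7e-08). Gpr84, a receptor for medium-chain fatty acids that LPS induces in myeloid cells, was at 2250, 3149, 2158 and 1733 against 697, 1020, 475 and 431 CPM (log2 fold change -1.81 ± 0.27, adjusted p = 6.75e-05). The host libraries were above all engrafted libraries for each of these genes. The lysosomal protease Ctsl and the P-selectin ligand Selplg were also higher in host microglia (log2 fold changes -1.71 and -1.56).

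**Figure D3:**
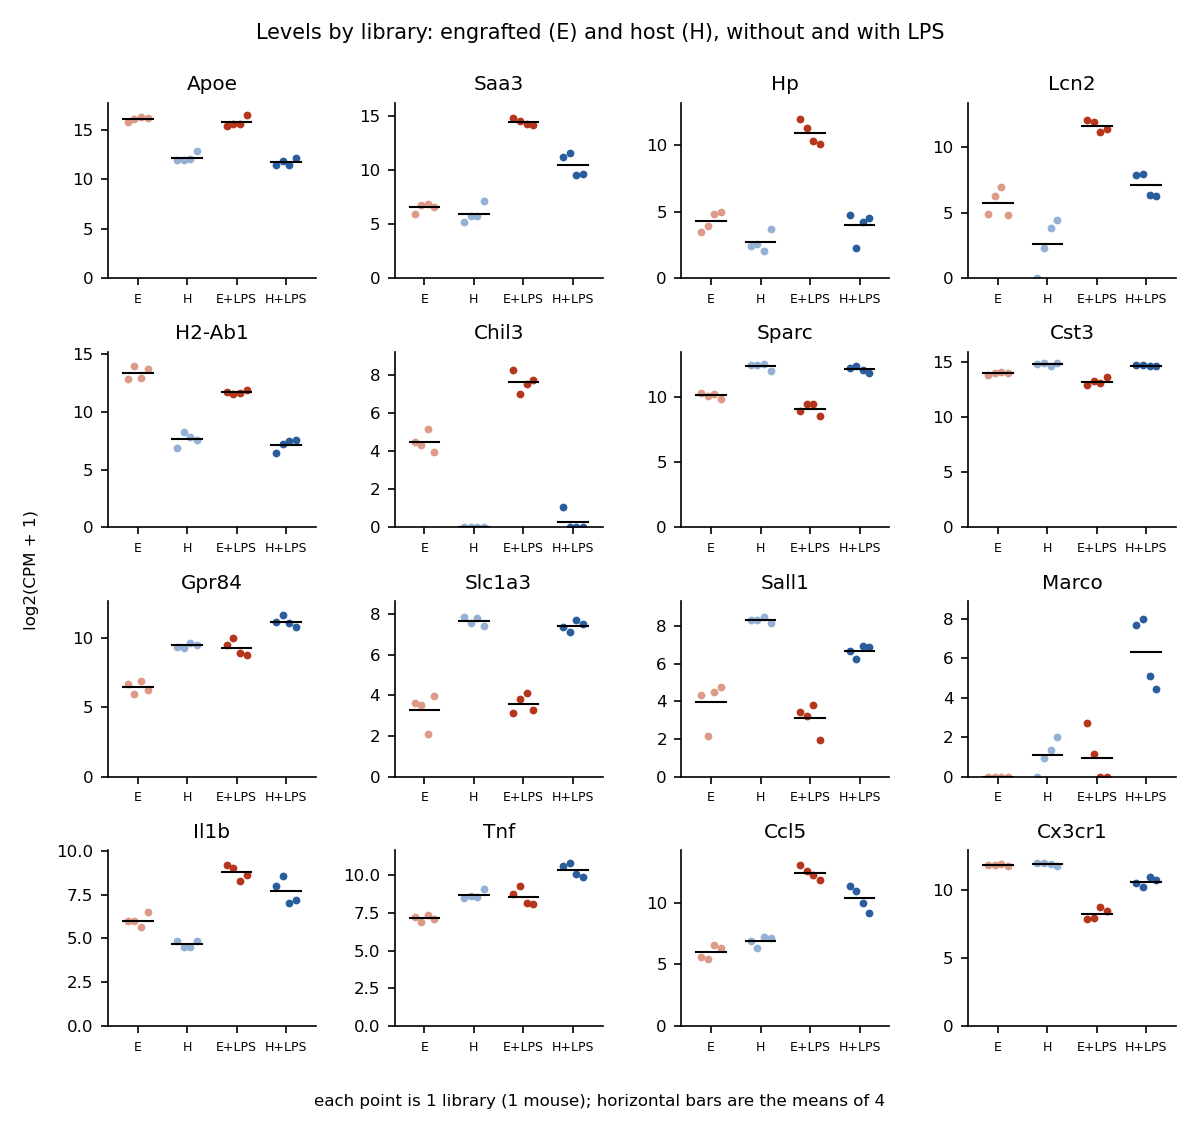
Levels of 16 genes in each of 16 libraries as log2 of the CPM plus 1 (y axis), for engrafted (E) and host (H) cells without and with LPS, each point being 1 library and each bar the mean of 4. After LPS the engrafted points of Apoe, Saa3, Hp, Lcn2, H2-Ab1 and Chil3 lay above all host points, and those of Sparc, Cst3, Gpr84, Slc1a3, Sall1, Marco, Tnf and Cx3cr1 lay below them.

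Homeostatic microglia genes, which mark microglia in the undisturbed brain, were lower in engrafted cells or did not pass the test, and 0 of 29 were called higher in engrafted cells. Of the 29 members, 17 (58.6%, against 11.1% of all genes) were called higher in host microglia, the median log2 fold change being -1.42. Without LPS 17 of 29 were called, with a median of -1.34. The zinc finger factor Sall1, which maintains microglia identity, was at 100.5, 73.9, 122 and 116 CPM in host and 9.88, 8.41, 12.8 and 2.91 CPM in engrafted libraries (log2 fold change -3.43 ± 0.29, adjusted p = 1.36e-07). Its relative Sall3 was at 81.3, 64.2, 143 and 126 against 3.29, 3.6, 5.12 and 0 CPM (log2 fold change -4.82 ± 0.41, adjusted p = 1.3e-07). Upk1b, a uroplakin, was at 18.1, 41.8, 27.3 and 22.3 against 1.1, 2.4, 2.56 and 0 CPM (log2 fold change -3.87 ± 0.50, adjusted p = 1.92e-05). None of these ranges overlapped. Cx3cr1 was at 1494, 1230, 2067 and 1719 CPM in host and 235, 244, 430.4 and 355 CPM in engrafted libraries (log2 fold change -2.36 ± 0.24, adjusted p = 1.39e-06). Without LPS the levels overlapped (4066, 4090, 3896 and 3561 against 3666, 3811, 3977 and 3573 CPM, log2 fold change -0.05 ± 0.10, adjusted p = 0.76). The difference of the log2 fold changes with and without LPS was -2.32 ± 0.25 (adjusted p = 7.76e-07). The purinergic receptor P2ry12 was at 435, 471, 439.5 and 437 against 202, 195, 259 and 262 CPM and just missed the fold threshold (log2 fold change -0.95 ± 0.19, adjusted p = 0.00139). Its values did not overlap, and it passed the rule without engrafted library 3 or without engrafted library 4 (log2 fold changes -1.004 and -1.005) and with totals (-1.11). The lipid sensor Trem2 (log2 fold change -0.81 ± 0.22, adjusted p = 0.0145), the calcium-binding protein Aif1 (-0.31 ± 0.21, adjusted p = 0.38) and the membrane protein Tmem119 (-0.13 ± 0.22, adjusted p = 0.77) were not called. Tmem119 was at 748, 759, 1079 and 1261 CPM in host and 707, 1035, 816 and 946 CPM in engrafted libraries, overlapping. Its log2 fold change was 0.03 without host library 4. Without LPS it was called higher in host microglia (-1.36 ± 0.14, adjusted p = 3.26e-08), the difference with against without LPS being 1.24 ± 0.27 (adjusted p = 0.00553).

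Of 29 lineage and signal-dependent transcription factors tested, 6 were called higher in engrafted cells and 6 in host microglia, with a median log2 fold change of 0.22. The oxysterol receptor Nr1h3, a regulator of cholesterol efflux, was at 41.7, 28.8, 62.8 and 90.2 CPM in engrafted cells and had 3 reads in the host libraries together (pooled ratio 57.3, counting interval 19.2 to 281, adjusted p = 1.89e-06). Runx3, which directs leukocyte differentiation, was at 95.5, 101, 131 and 29.1 against 0, 1.95, 4.75 and 2.79 CPM (log2 fold change 5.25 ± 0.50, adjusted p = 5.6e-07). The orphan nuclear receptor Nr4a1, needed by patrolling monocytes, was at 342, 292, 191 and 306 against 18.1, 16.5, 26.1 and 39.1 CPM (log2 fold change 3.53 ± 0.27, adjusted p = 3.66e-08). The engrafted values of all 3 genes were above the host values. Nr4a1 differed by more with LPS than without (1.36 without LPS, difference 2.18 ± 0.36, adjusted p = 0.000251). Bhlhe40, a basic helix-loop-helix repressor, was higher in engrafted cells (log2 fold change 2.59 ± 0.41, adjusted p = 0.00017). Its paralogue Bhlhe41 was higher in host microglia (-1.95 ± 0.34, adjusted p = 0.000482). Besides Sall1 and Sall3, factors higher in host microglia included the immediate early factor Egr2 (log2 fold change -1.89 ± 0.33, adjusted p = 0.000438). Rxrg, a retinoid receptor, had 1 read in all engrafted libraries and was at 20.3, 42.8, 27.3 and 18.1 CPM in host libraries (a pooled ratio of 81.0, counting interval 14.2 to 3230 towards host microglia).

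Cytokines were split between both populations: interleukin-1 receptor antagonist and Il1b were higher in engrafted cells, whereas Tnf, Il1a, Csf1 and Il12b were higher in host microglia. Of 14 tested cytokines, 2 were called higher in engrafted cells and 4 in host microglia, with a median log2 fold change of 0.014 (-0.129 with totals). The first count was 0 without engrafted library 1, 1 without engrafted library 2 and 4 without host library 2, and the second was 2 without engrafted library 3. Csf1, the growth factor of macrophages, had a log2 fold change of -1.33 ± 0.36 (adjusted p = 0.0156), and an adjusted p of 0.059 without engrafted library 3 and 0.055 without host library 3. The inflammatory cytokine Tnf was at 1578, 1776, 1064 and 934 CPM in host libraries 1 to 4 and 439, 611, 289.5 and 271 CPM in engrafted libraries 1 to 4 (log2 fold change -1.72 ± 0.27, adjusted p = 0.000163). The alarmin Il1a was at 388, 382, 234 and 147 against 102, 80.5, 39.7 and 26.2 CPM (log2 fold change -2.14 ± 0.35, adjusted p = 0.000223). For both, all host libraries were above all engrafted libraries. Il1b, the secreted inflammasome product, was at 598, 525, 315 and 396 CPM in engrafted and 255, 380.3, 128 and 145 CPM in host libraries, overlapping (log2 fold change 1.02 ± 0.30, adjusted p = 0.0255). Its fold or adjusted p no longer passed without engrafted library 1 (0.87) or 2 (0.96), without host library 1 (1.07, adjusted p = 0.051), 3 (0.82) or 4 (0.85), or with totals (0.87). Il1rn, which blocks the interleukin-1 receptor, was at 866, 659.5, 301 and 169 against 286, 191, 70.1 and 41.9 CPM, overlapping (log2 fold change 1.78 ± 0.50, adjusted p = 0.0189). It had an adjusted p of 0.086 without engrafted library 1, 0.052 without engrafted library 2 and 0.065 without host library 3. The interleukin-12 subunit Il12b was at 41.8, 71.0, 21.4 and 16.8 CPM in host and 17.6, 13.2, 8.97 and 0 CPM in engrafted libraries, overlapping (log2 fold change -1.73 ± 0.49, adjusted p = 0.0189). The adjusted p was 0.060 without engrafted library 3 and 0.092 without host library 2. Within every mouse, Il1b and Il1rn were higher in the engrafted sort and Il12b in the host sort. These genes stayed called in the paired fit with the mouse as a replicate block.

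The neutrophil-attracting chemokines Cxcl1, Cxcl2 and Cxcl3, platelet factor Pf4, Ccl5 and Ccl6 were higher in engrafted cells, and the chemokines Ccl3 and Ccl4 and the CCR2 ligand Ccl12 were higher in host microglia. Of 18 chemokines tested, 12 (66.7%) were called, 9 higher in engrafted cells and 3 in host microglia, with a median log2 fold change of 1.31. Without LPS 7 and 3 of 16 were called, with a median of 0.68. The CXCR2 ligand Cxcl2 was at 2346, 2906, 1341 and 2145 CPM in engrafted and 210.0, 276, 102 and 76.8 CPM in host libraries (log2 fold change 3.72 ± 0.36, adjusted p = 5.84e-07). Its relatives Cxcl1 and Cxcl3 had log2 fold changes of 5.44 ± 0.50 (adjusted p = 3.49e-07), or 7.14 without host library 2, and 4.65 ± 0.54 (adjusted p = 5.28e-06). Platelet factor 4, Pf4, was at 157, 210.2, 122 and 87.3 against 2.26, 3.89, 5.94 and 1.4 CPM (log2 fold change 5.36 ± 0.37, adjusted p = 8.14e-09). In none of these 4 chemokines did the libraries overlap. Ccl5, which attracts T cells and monocytes, was at 8515, 6131, 4746 and 3740 against 2701, 1961, 1019 and 568 CPM (log2 fold change 1.90 ± 0.37, adjusted p = 0.00119), without overlap. Without LPS Ccl5 was within 2-fold (log2 fold change -0.91 ± 0.22, adjusted p = 0.00205), and the difference with against without LPS was 2.79 ± 0.49 (adjusted p = 0.000502). Ccl6 changed direction. It was at 391, 235, 319 and 544 CPM in engrafted and 75.6, 109, 79.6 and 86.6 CPM in host libraries after LPS (log2 fold change 2.08 ± 0.25, adjusted p = 7.71e-06). Without LPS it was higher in host microglia (-1.23 ± 0.16, adjusted p = 1.69e-06), a difference of 3.29 ± 0.32 (adjusted p = 8.16e-08). Ccl12 was at 1069, 1065, 719 and 584 CPM in host and 329, 354, 478 and 358 CPM in engrafted libraries (log2 fold change -1.16 ± 0.23, adjusted p = 0.00123). Without LPS its log2 fold change was 0.32, a difference of -1.49 ± 0.28 (adjusted p = 0.00106). Ccl4 was at 4663, 5976, 2100 and 2166 against 1646, 2264, 976 and 797 CPM, with 1 engrafted value above 2 host values (log2 fold change -1.38 ± 0.35, adjusted p = 0.00968). Within every mouse its level was higher in the host sort. Ccl3 was at 5968, 6910, 3191 and 3110 against 2433, 3107, 1837 and 2127 CPM (log2 fold change -1.003 ± 0.26, adjusted p = 0.011) and lay at the fold threshold. Its log2 fold change was -0.88 without engrafted library 3, -0.94 without engrafted library 4, -0.89 without host library 1 and -0.77 without host library 2. In the paired fit with the mouse as a replicate block it was -0.94 (adjusted p = 0.000409).

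Among 27 chemokine and cytokine receptors tested, 4 were called higher in engrafted cells and 3 in host microglia, with a median of -0.19. The monocyte chemokine receptor Ccr2 was at 39.5, 31.2, 61.5 and 52.4 CPM in engrafted cells and had 3 reads in the host libraries (pooled ratio 51.6, counting interval 17.3 to 254, adjusted p = 6.72e-07). Cxcr4, the receptor that retains leukocytes in bone marrow, was at 49.4, 43.2, 53.8 and 81.5 against 2.26, 1.95, 1.19 and 2.79 CPM (log2 fold change 4.67 ± 0.39, adjusted p = 8.87e-08). Ccr1 was at 334, 312, 404 and 361 against 32.7, 25.3, 57.0 and 83.8 CPM (2.86 ± 0.30, adjusted p = 1.39e-06). No host value of these receptors reached an engrafted value. The chemerin-binding receptor Ccrl2 followed (log2 fold change 1.42 ± 0.28, adjusted p = 0.00151). Il17ra, the shared receptor of interleukin-17 cytokines, was higher in host microglia at 576, 539.8, 848 and 828 against 199, 279.9, 265 and 256 CPM (log2 fold change -1.47 ± 0.22, adjusted p = 6.67e-05).

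Tlr4 was not called, and the share of endotoxin-sensing genes called was 17.4%, beside 11.1% of all tested genes. Of 23 members of the endotoxin and Toll-like receptor list tested, 2 were called higher in engrafted cells and 2 in host microglia, with a median log2 fold change of -0.21. The first count was 1 without engrafted library 1 or 2 or host library 3 or 4, and the second was 1 without engrafted library 1, 2 or 4 or host library 3 or 4. Tlr4 itself was at 36.2, 25.2, 48.7 and 37.8 CPM in engrafted and 30.5, 31.1, 38.0 and 30.7 CPM in host libraries, overlapping (log2 fold change 0.19 ± 0.25, adjusted p = 0.7). The single-stranded RNA sensor Tlr8 was at 99.9, 97.3, 119 and 111 CPM in engrafted and 3.39, 1.95, 1.19 and 1.4 CPM in host libraries (log2 fold change 5.63 ± 0.31, adjusted p = 8.55e-10). Its relative Tlr7 was at 855, 805, 757 and 647 CPM in host and 405, 376, 436 and 236 CPM in engrafted libraries (-1.06 ± 0.21, adjusted p = 0.00149). Tlr7 fell within 2-fold without engrafted library 4 (-0.89). Tlr2, which recognises bacterial lipoproteins, was at 651, 959, 526 and 390.0 CPM in engrafted and 1109, 1604, 659 and 585 CPM in host libraries, overlapping and not called (log2 fold change -0.63 ± 0.31, adjusted p = 0.19). Without LPS it was called higher in engrafted cells (1.05 ± 0.14, adjusted p = 2.27e-06), and the difference with against without LPS was -1.69 ± 0.37 (adjusted p = 0.00455). Of 21 NF-kappaB subunits and inhibitors tested, 1, the inhibitor Nfkbie (1.04 ± 0.30, adjusted p = 0.023), was called higher in engrafted cells and 0 in host microglia, with a median of 0.097 (-0.048 with totals). That count was 0 without engrafted library 1 or 2 or host library 1, 3 or 4, and 2 without engrafted library 4. The feedback inhibitor Socs3, a member of the same list, was at 1603, 2144, 998 and 1531 CPM in engrafted and 1569, 1931, 958 and 1071 CPM in host libraries after LPS (log2 fold change 0.19 ± 0.25, adjusted p = 0.69). It was at 171, 148, 121 and 106 against 476, 502, 479.8 and 617 CPM without LPS, a difference of 2.10 ± 0.32 (adjusted p = 9.41e-05).

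Interferon-induced genes were higher in engrafted cells or did not pass the test. Of 40 members tested, 17 (42.5%) were called higher in engrafted cells and 0 in host microglia, 38 had a positive log2 fold change, and the median was 0.93. Without LPS 11 of 38 were called, all higher in engrafted cells, with a median of 0.70. The antiviral membrane protein Ifitm3 was at 1731, 1286, 1242 and 725 CPM in engrafted and 170.5, 175, 169 and 88.0 CPM in host libraries (log2 fold change 3.06 ± 0.28, adjusted p = 3.27e-07). Irf7, the factor that amplifies type I interferon, was at 1350, 1283, 771 and 946 against 164, 194, 163 and 109 CPM (log2 fold change 2.79 ± 0.24, adjusted p = 1.4e-07). The RNA sensor Oas3 was at 68.0, 68.5, 43.5 and 69.8 against 12.4, 5.84, 4.75 and 15.4 CPM (2.72 ± 0.33, adjusted p = 7.19e-06). No library overlapped for these genes. The exonuclease Isg20 had a log2 fold change of 2.54 ± 0.31 (adjusted p = 8.84e-06). The ubiquitin-like modifier Isg15 was at 469.7, 498, 307 and 483 against 131, 227, 78.4 and 47.5 CPM (1.86 ± 0.34, adjusted p = 0.000732). Isg15 did not differ detectably without LPS (log2 fold change 0.02 ± 0.20, adjusted p = 0.95), and the difference with against without LPS was 1.81 ± 0.43 (adjusted p = 0.0102). For Irf7, Isg20 and Oas3 the same difference was 1.70 ± 0.28 (adjusted p = 0.000314), 1.91 ± 0.46 (adjusted p = 0.0113) and 1.83 ± 0.46 (adjusted p = 0.0144). Of 43 members tested for this difference, 5 shifted towards engrafted cells with LPS and 1 towards host microglia. Over all genes tested the shares were 2.45% and 2.5%.

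Promoters of Oas3 (chr5:120777660-120777909, minus strand) and Isg20 (chr7:78913174-78913423, plus strand) are shown because they hold the ISRE letters, and were picked after the values were known. Those of the leading members Ifitm3 and Irf7 do not hold these letters in the same window and are not printed. Capitals mark ISRE, AP-1 and GAS matches. In Oas3 the ISRE match starts 74 bases before the start of transcription, with AP-1 matches at 109 and 54 bases. In Isg20 the ISRE match starts at 62 and a GAS match at 73 bases.
Oas3: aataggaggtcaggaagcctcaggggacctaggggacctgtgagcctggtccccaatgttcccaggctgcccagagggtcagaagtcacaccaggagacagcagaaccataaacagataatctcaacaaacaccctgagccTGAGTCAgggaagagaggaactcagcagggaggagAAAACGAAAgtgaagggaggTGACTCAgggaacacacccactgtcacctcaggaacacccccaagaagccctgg
Isg20: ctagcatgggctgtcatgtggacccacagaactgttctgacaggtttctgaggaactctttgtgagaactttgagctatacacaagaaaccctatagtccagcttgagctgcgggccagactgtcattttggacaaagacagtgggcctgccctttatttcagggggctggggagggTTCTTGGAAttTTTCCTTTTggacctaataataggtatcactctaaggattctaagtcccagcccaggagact
The ISRE letters stood in 19 of 31 promoters of tested members of the interferon list (61.3%) and in 7.16% of all promoters of tested genes. Within the list the share was 61.5% (8 of 13) of called and 61.1% (11 of 18) of not called members. Over all genes the share was 12.8% (53 of 413) for those higher in engrafted cells and 7.36% (17 of 231) for those higher in host microglia.

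The class II chains H2-Aa, H2-Ab1 and H2-Eb1, the invariant chain Cd74 and the immunoproteasome subunits Psmb9 and Psmb8 were higher in engrafted cells. MHC class II molecules display peptides to CD4 T cells. Of 13 class II and costimulation genes tested 7 were called higher in engrafted cells and 1 in host microglia, with a median log2 fold change of 1.06. The class II chain H2-Aa was at 2103, 2042, 1877 and 2354 CPM in engrafted and 33.9, 46.7, 93.8 and 85.2 CPM in host libraries (log2 fold change 5.03 ± 0.30, adjusted p = 1.58e-09). H2-Ab1 was at 3279, 2943, 3155 and 3743 against 83.5, 147, 181 and 184 CPM (4.47 ± 0.26, adjusted p = 1.22e-09). H2-Eb1 was at 758, 1095, 976 and 1505 against 23.7, 30.1, 40.4 and 39.1 CPM (5.03 ± 0.28, adjusted p = 8.45e-10). Host values stayed far below all engrafted values. Cd74, the invariant chain, was at 1852, 1751, 1766 and 2957 against 179.5, 204, 160.4 and 127 CPM (log2 fold change 3.64 ± 0.24, adjusted p = 5.64e-09). The difference was smaller with LPS than without for H2-Eb1 (6.97 without LPS, difference -1.95 ± 0.41, adjusted p = 0.0033) and Cd74 (5.82, difference -2.20 ± 0.38, adjusted p = 0.000466). In engrafted cells Cd74 averaged 5741 ± 2209 CPM without LPS and 2082 ± 585 CPM with LPS (SD, n = 4 each). The exception was H2-Oa, a subunit of a brake on class II peptide loading, at 85.8, 83.7, 63.0 and 85.2 CPM in host and 6.58, 20.4, 19.2 and 32.0 CPM in engrafted libraries (log2 fold change -2.15 ± 0.31, adjusted p = 4.94e-05). Of 16 class I genes tested 4 were called higher in engrafted cells and 0 in host microglia (1 in host microglia without host library 3), with a median of 0.69. Of these, the immunoproteasome subunits Psmb9 and Psmb8 had log2 fold changes of 1.42 ± 0.19 (adjusted p = 2.61e-05) and 1.31 ± 0.19 (adjusted p = 5.66e-05), without overlap. The subunit Psmb10 was within 2-fold and not called (0.91 ± 0.20, adjusted p = 0.00302), except without host library 2 (1.05). The class I transactivator Nlrc5 (1.24 ± 0.27, adjusted p = 0.0031) and the class I molecule H2-Q7 (1.17 ± 0.30, adjusted p = 0.0103) overlapped between both sorts, and H2-Q7 may share reads with other H2-Q genes.

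Genes known from disease-associated microglia went both ways: 8 of 24 tested were called higher in engrafted cells and 5 in host microglia, with a median of -0.19. The galectin Lgals3 was at 1269, 937, 927 and 1819 CPM in engrafted and 12.4, 30.1, 26.1 and 34.9 CPM in host libraries (log2 fold change 5.58 ± 0.33, adjusted p = 1.33e-09). The secreted phosphoprotein Spp1 was at 726, 823, 1082 and 1470 against 98.2, 68.1, 128 and 235 CPM (2.97 ± 0.34, adjusted p = 3.98e-06). The apoptotic cell receptor Axl was at 473, 608, 407 and 521 against 67.7, 86.6, 55.8 and 97.8 CPM (2.71 ± 0.23, adjusted p = 9.77e-08). Apoe, described above, belongs to this group, and neither its libraries nor those of these 3 genes overlapped. For Lgals3 the log2 fold change was 2.92 without LPS, a difference of 2.65 ± 0.43 (adjusted p = 0.000205). Gpnmb had a log2 fold change of 3.91 ± 0.53 (adjusted p = 3.26e-05), or 4.60 without host library 2. The tetraspanin Cd9 was at 581, 665, 535 and 490.2 CPM in host and 96.6, 75.7, 80.7 and 102 CPM in engrafted libraries (log2 fold change -2.68 ± 0.21, adjusted p = 3.63e-08). The integrin Itgax was at 21.4, 39.9, 15.4 and 47.5 against 12.1, 10.8, 7.69 and 2.91 CPM (-1.71 ± 0.41, adjusted p = 0.00668).

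Perivascular macrophage markers, which label macrophages along brain vessels, were mostly higher in engrafted cells where they could be tested. Of 17 listed, 9 were tested, and 8 were called in this direction, with a median log2 fold change of 5.15. Members with few host reads, such as Cd38 and Ms4a7, were tested because engrafted libraries held enough, whereas Mgl2 and Cd36 had too few after LPS. Without LPS 10 of 11 tested were called, with a median of 4.60 over a different set of members. By the interaction term, 0 of 14 members shifted towards engrafted cells with LPS and 2 towards host microglia. The mannose receptor Mrc1 was at 514, 417, 542 and 544 CPM in engrafted and 18.1, 12.6, 9.5 and 16.8 CPM in host libraries (log2 fold change 5.15 ± 0.25, adjusted p = 2.38e-10). The NAD glycohydrolase Cd38 was at 420.3, 341, 355 and 279 against 7.9, 5.84, 10.7 and 5.59 CPM (5.53 ± 0.26, adjusted p = 2.38e-10). Ms4a7 was at 195, 217, 322 and 346 against 5.64, 7.78, 2.38 and 4.19 CPM (5.67 ± 0.32, adjusted p = 8.45e-10). Coagulation factor F13a1 had a log2 fold change of 5.47 ± 0.33 (adjusted p = 1.58e-09). That of the hemoglobin scavenger receptor Cd163 was 5.04 ± 0.52 (adjusted p = 1.21e-06), or 6.38 without host library 4. The endocytic adaptor Dab2 was at 593, 456, 419 and 326 against 159, 117, 166 and 137 CPM (1.65 ± 0.22, adjusted p = 2.29e-05). Dab2 differed by less with LPS than without, where its log2 fold change was 4.25 (difference -2.61 ± 0.32, adjusted p = 3.99e-06), the host mean being 10.4 CPM without and 145 CPM with LPS. The uncalled member, the scavenger receptor Stab1, was at 960.2, 939, 1438 and 1377 CPM in engrafted and 554, 393, 836 and 835 CPM in host libraries (0.86 ± 0.25, adjusted p = 0.023). Perivascular macrophages carry more CD45 than parenchymal cells, and the gate took cells of low CD45.1. How many perivascular cells passed it was not tested.

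Scavenger and C-type lectin receptors included Marco, the single member of 18 tested that was higher in host microglia, and 7 that were higher in engrafted cells (median 0.80). The mycobacterial cord factor receptor Clec4e was at 414, 476, 301 and 160.1 CPM in engrafted and 6.77, 5.84, 4.75 and 2.79 CPM in host libraries (log2 fold change 6.02 ± 0.37, adjusted p = 2.45e-09). Clec12a, an inhibitory lectin, was at 75.7, 72.1, 71.7 and 75.7 against 1.13, 0.973, 0 and 2.79 CPM (5.82 ± 0.39, adjusted p = 6.53e-09). No host library reached the engrafted range for either gene. The scavenger receptor Msr1 was at 785, 645, 498 and 684 against 581, 533, 423 and 413 CPM, overlapping and not called (0.43 ± 0.20, adjusted p = 0.17). Without LPS it was called higher in engrafted cells (2.99 ± 0.29, adjusted p = 9.36e-09), a difference of -2.58 ± 0.37 (adjusted p = 6.27e-05). Host Msr1 averaged 8.92 ± 6.15 CPM without LPS and 488 ± 82.8 CPM with LPS (SD, n = 4 each). Of 18 paired and inhibitory receptors tested 4 were called higher in engrafted cells, 7 without host library 2, and 0 in host microglia, with a median of 0.11 (-0.037 with totals). The inhibitory receptor Pirb was at 1051, 945, 1044 and 1086 against 216, 166, 209 and 198 CPM (log2 fold change 2.40 ± 0.19, adjusted p = 5.06e-08). It did not differ detectably without LPS (0.18 ± 0.20, adjusted p = 0.56), a difference of 2.19 ± 0.30 (adjusted p = 2.56e-05). Lilrb4a moved the other way, with a log2 fold change of 1.09 ± 0.20 (adjusted p = 0.000561) with and 3.87 without LPS (difference -2.79 ± 0.25, adjusted p = 1.81e-08). It may share reads with its neighbour Lilr4b (3.29 ± 0.25, adjusted p = 3.66e-08). Trem3 was at 63.6, 51.6, 32.0 and 46.6 against 4.51, 6.81, 8.32 and 5.59 CPM (2.93 ± 0.33, adjusted p = 3.38e-06).

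Fc receptors bind antibody. The inhibitory receptor Fcgr2b was at 765, 846, 596 and 757 CPM in engrafted and 388, 346, 289.9 and 249 CPM in host libraries (log2 fold change 1.23 ± 0.20, adjusted p = 0.000222). It was not called without LPS (-0.42 ± 0.14, adjusted p = 0.0327), a difference of 1.63 ± 0.25 (adjusted p = 0.000127). It was the only 1 of 7 tested Fc receptors called higher in engrafted cells. The neonatal Fc receptor Fcgrt lay at the fold threshold towards host microglia (-1.002 ± 0.19, adjusted p = 0.000922). The count called higher in host microglia was 1, and 0 without engrafted library 2 or host library 2, 3 or 4 and in the paired fit with the mouse as a replicate block.

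Of 13 complement genes tested, 3, all components, were called higher in engrafted cells and 4, among them the receptors C3ar1, C5ar1 and Itgax, in host microglia, with a median of -0.39. Factor B, Cfb, of the alternative pathway was at 725, 578, 416 and 361 CPM in engrafted and 4.51, 5.84, 5.94 and 9.78 CPM in host libraries (log2 fold change 6.33 ± 0.32, adjusted p = 3.19e-10). Properdin, Cfp, which stabilises the alternative convertase, was at 508, 413, 306 and 463 against 22.6, 26.3, 19.0 and 16.8 CPM (4.30 ± 0.24, adjusted p = 1e-09). C3, the central component, was at 221, 153, 137 and 90.2 against 19.2, 24.3, 26.1 and 33.5 CPM (2.59 ± 0.26, adjusted p = 1.16e-06). All engrafted values of these 3 genes were above all host values. The anaphylatoxin receptor C3ar1 was at 1016, 1112, 799.5 and 605 CPM in host and 252, 234, 274 and 268 CPM in engrafted libraries (log2 fold change -1.77 ± 0.21, adjusted p = 8.52e-06). Without LPS its log2 fold change was 0.55 ± 0.14 (adjusted p = 0.00372), a difference of -2.33 ± 0.26 (adjusted p = 9.87e-07). C5ar1 had a log2 fold change of -1.18 ± 0.18 (adjusted p = 0.000113). Cfb averaged 8.81 CPM in engrafted and 2.65 CPM in host cells without LPS, and its difference with against without LPS was 4.69 ± 0.76 (adjusted p = 0.000216).

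Genes of inflammatory metabolism were called higher in engrafted cells for 7 and in host microglia for 1 of 25 tested, with a median of 0.39. Arg1, which converts arginine to ornithine, was at 538, 352, 311 and 489 CPM in engrafted and 12.4, 3.89, 9.5 and 6.98 CPM in host libraries (log2 fold change 5.68 ± 0.32, adjusted p = 8.45e-10). Cybb, the catalytic subunit of the phagocyte oxidase, was at 1289, 1213, 1014 and 506 against 246, 219.8, 115 and 83.8 CPM (2.61 ± 0.34, adjusted p = 1.77e-05). Neither overlapped. The Cybb difference was larger without LPS (4.60, difference -2.01 ± 0.38, adjusted p = 0.00129), host means being 40.1 CPM without and 166 CPM with LPS. Gch1, which makes the cofactor of nitric oxide synthase, had a log2 fold change of 1.59 ± 0.27 (adjusted p = 0.000348). That of the mitochondrial superoxide dismutase Sod2 was 1.59 ± 0.42 (adjusted p = 0.0137). Sod2 was at 2325, 2861, 1299 and 1912 against 931, 1348, 305 and 221 CPM, overlapping, with host libraries 1 and 2 above host libraries 3 and 4. Within every mouse it was higher in the engrafted sort. Cyclooxygenase-1, Ptgs1, was higher in host microglia at 606, 494, 801 and 726 against 188, 173, 248 and 192 CPM (-1.70 ± 0.21, adjusted p = 1.37e-05).

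Lipid handling genes were called higher in engrafted cells for 7 and in host microglia for 1 of 19 tested, with a median of 0.32. Besides Apoe and Nr1h3, the apolipoprotein Apoc2 was at 191, 165, 169 and 160.1 CPM in engrafted and 24.8, 16.5, 10.7 and 18.1 CPM in host libraries (log2 fold change 3.29 ± 0.23, adjusted p = 8.41e-09). The fatty acid-binding protein Fabp5 had 1 host read and was at 46.1, 24.0, 20.5 and 20.4 CPM in engrafted cells (pooled ratio 103, counting interval 18.0 to 4111). Both were above all host libraries in each engrafted library. Ch25h, which makes 25-hydroxycholesterol, was the single member higher in host microglia, at 945, 1736, 194 and 85.2 CPM in host and 135, 140.5, 88.4 and 105 CPM in engrafted libraries (log2 fold change -2.64 ± 0.62, adjusted p = 0.00551, and -1.78 without host library 2). Host libraries 1 and 2 were far above, and host library 4 was below, the engrafted values. The count of members higher in host microglia was 2 without engrafted library 3 or without host library 2.

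Iron handling genes included haptoglobin and Cd163 among 5 of 11 tested that were called higher in engrafted cells (median 0.83). Of the others, heme oxygenase Hmox1 was at 424, 401, 325 and 384 CPM in engrafted and 148, 167, 154 and 138 CPM in host libraries (log2 fold change 1.34 ± 0.18, adjusted p = 3.26e-05). Ceruloplasmin, Cp, was at 474, 405, 430.4 and 212 against 188, 133, 76.0 and 54.5 CPM (1.76 ± 0.32, adjusted p = 0.000695). Ferritin heavy chain, Fth1, was at 22510, 21890, 15130 and 22600 against 12020, 14080, 7172 and 7221 CPM (log2 fold change 1.03 ± 0.23, adjusted p = 0.00418). All engrafted values of these 3 genes exceeded all host values. Fth1 was within 2-fold without engrafted library 1 (0.99) or 4 (0.99), without host library 3 (0.89) or 4 (0.90) and with totals (0.87). The transferrin receptor Tfrc (-1.70 ± 0.48, adjusted p = 0.019) was the single member called higher in host microglia, and 0 were called without engrafted library 2 or host library 3.

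Adhesion molecules and integrins were split, with 6 of 25 tested called higher in engrafted cells and 6 in host microglia (median -0.04). The integrin subunit Itga4, part of the VLA-4 receptor of circulating leukocytes, was at 129.5, 96.1, 166 and 84.4 CPM in engrafted and 2.26, 5.84, 2.38 and 2.79 CPM in host libraries (log2 fold change 5.09 ± 0.35, adjusted p = 8.14e-09). The hyaluronan receptor Cd44 was at 273, 189.8, 209 and 139.7 against 20.3, 17.5, 14.3 and 12.6 CPM (3.65 ± 0.25, adjusted p = 6.79e-09). Itgal, a subunit of LFA-1, was at 137, 132, 91.0 and 111 against 12.4, 8.75, 9.5 and 22.3 CPM (3.20 ± 0.27, adjusted p = 1.36e-07). The tetraspanin Cd81 was at 2153, 2262, 2373 and 2169 CPM in host and 651, 807, 638 and 748 CPM in engrafted libraries (-1.65 ± 0.18, adjusted p = 2.35e-06). None of these 4 genes overlapped. In the Ms4a family of membrane proteins, 3 of 6 tested were called higher in engrafted cells and 0 in host microglia (median 1.45). Besides Ms4a7, these were Ms4a4c (2.53 ± 0.25, adjusted p = 6.63e-07) and Ms4a8a (3.89 ± 0.56, adjusted p = 5.1e-05, or 5.28 without host library 1). Ms4a6c was at 893, 758, 1076 and 1039 CPM in engrafted and 633, 645, 849 and 804 CPM in host libraries (0.37 ± 0.19, adjusted p = 0.23). Without LPS it was at 319, 372, 330.1 and 358 against 56.3, 37.5, 56.1 and 40.3 CPM, a difference of -2.50 ± 0.25 (adjusted p = 1.72e-07).

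Of 21 immediate early and heat shock genes tested, which respond to handling as well as to stimuli, 4 were called higher in engrafted cells and 1, Egr2, in host microglia (median 0.45). The first count was 2 without engrafted library 4 or without host library 1, 2 or 3, and the second was 2 without engrafted library 1, 2 or 3 or host library 2 and 3 without engrafted library 4. Klf2 was at 629, 448, 576 and 2212 CPM in engrafted and 297, 278, 319.6 and 525 CPM in host libraries (log2 fold change 1.44 ± 0.40, adjusted p = 0.018), library 4 being highest in both sorts. Without engrafted library 4 it was 0.67, and the adjusted p was 0.058, 0.053 and 0.052 without host libraries 1, 2 and 3. The heat shock protein Hspa1b was at 121, 50.5, 38.4 and 364 against 15.8, 26.3, 24.9 and 22.3 CPM (2.54 ± 0.55, adjusted p = 0.00284, and 1.68 without engrafted library 4). Of 14 p53 targets tested 1 was called in each direction, Pmaip1 (1.20 ± 0.31, adjusted p = 0.0117) and Zmat3 (-1.61 ± 0.41, adjusted p = 0.00941), with a median of -0.33, and 2 were called higher in host microglia without engrafted library 4 or host library 4. The share called was 14.3%, beside 11.1% of all tested genes. Without LPS, of 13 p53 targets tested, 1 was called higher in engrafted cells and 5 in host microglia, with a median of -0.91. The cell cycle inhibitor Cdkn1a was at 1083, 1077, 834 and 1013 against 1425, 1207, 1800 and 1289 CPM after LPS (-0.51 ± 0.19, adjusted p = 0.0817). It was at 165, 122, 159 and 150.2 against 1923, 1448, 1163 and 2016 CPM without LPS, a difference of 2.94 ± 0.26 (adjusted p = 1.81e-08). Of cell cycle genes, 6 had enough reads to be tested, of which 0 were called by edgeR and 0 had an unadjusted p below 0.05, and 3 of the list were called higher in engrafted cells without a filter for low counts. Of 2 sex-chromosome genes tested 0 were called, 1 having an unadjusted p below 0.05. A last list holds genes that the study names, most for a change with LPS within a population, and Apoe and Axl for constitutive expression in engrafted cells. That contrast differs from engrafted against host after LPS. The genes were chosen on these samples and are no independent evidence. Of 20 tested, 9 were called higher in engrafted cells and 6 in host microglia.

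**Figure D4:**
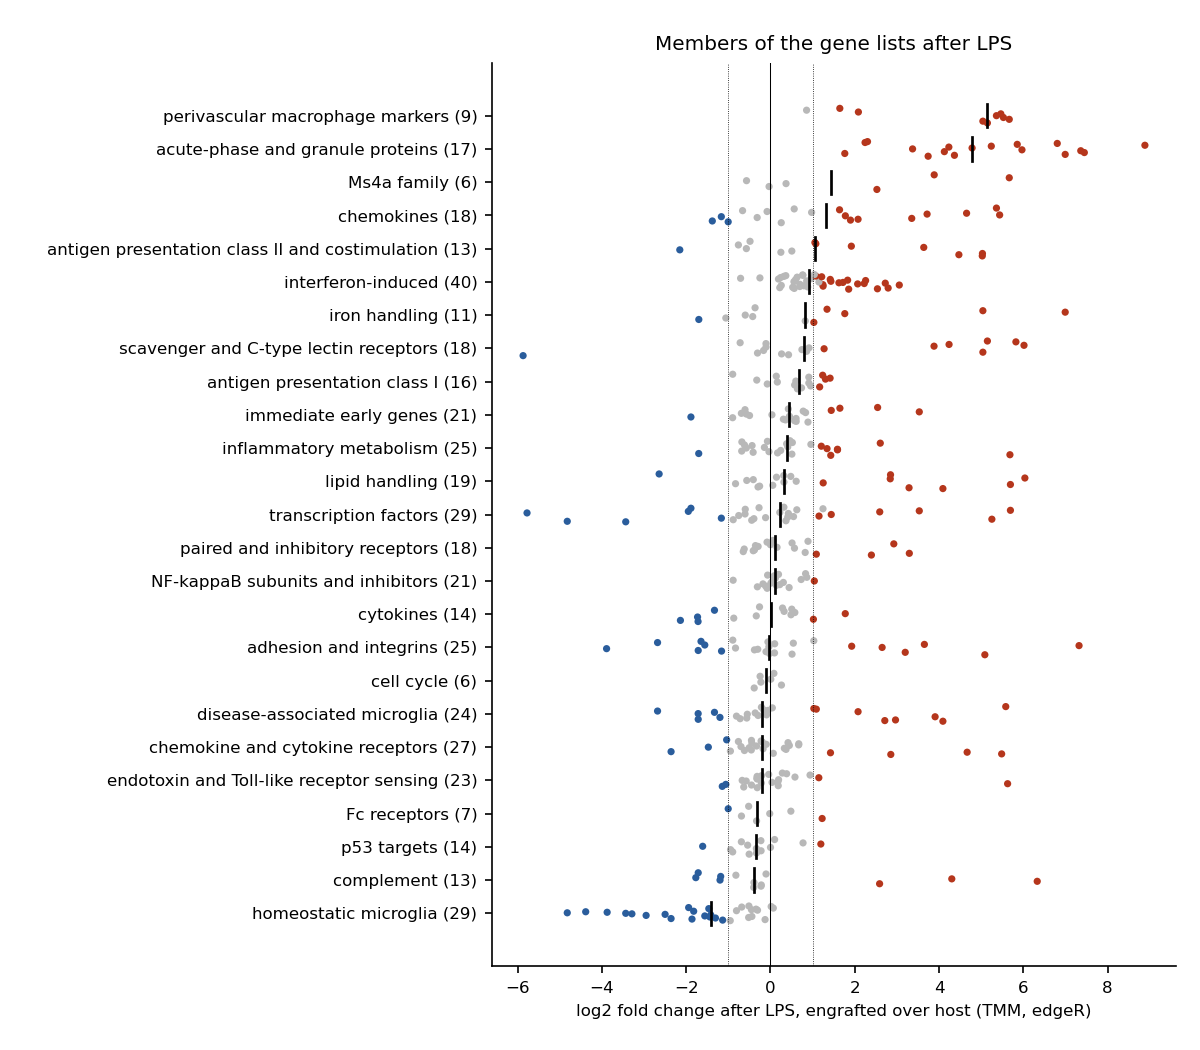
Log2 fold change after LPS, engrafted over host (x axis), of each tested member of 25 gene lists (1 line each, with the number tested). Red points were called higher in engrafted cells, blue points higher in host microglia and gray points not called; bars are list medians and dotted lines a log2 fold change of 1 in either direction. Perivascular macrophage markers (median 5.15) and acute-phase proteins (4.78) stood furthest to the right and homeostatic genes (-1.42) furthest to the left.

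Unchallenged chimeras were then used to ask which differences between engrafted and host cells were also present without LPS. Without LPS 883 of 8042 tested genes (11%) were called. Of 7352 genes tested in both settings, 724 were called after LPS and 696 without, and 388 were called in both with the same direction, 53.6% of the former and 55.7% of the latter. Of these, 224 were more abundant in engrafted cells and 164 in host microglia. A further 302 genes called without LPS were tested but not called after LPS, and 144 genes called after LPS had too few reads to be tested without LPS. Passing in 1 setting and not in the other does not show a difference between settings, which was tested with an interaction term over all 16 libraries. It found 438 of 8847 genes (4.95%) with a changed difference, 217 (2.45%) more towards engrafted cells with LPS and 221 (2.5%) more towards host microglia. The latter count was 135 without host LPS library 3 and 143 without unchallenged host library 8. Of genes called higher in engrafted cells after LPS, 115 had shifted towards engrafted cells and 20 towards host microglia. Of those called higher in host microglia, 60 had shifted towards host microglia and 7 towards engrafted cells.

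The genes with the largest shift towards engrafted cells were Gda, Slpi, the leukotriene B4 receptor Ltb4r1, Hp, Ly6c2 and S100a4, whose differences with against without LPS ranged from 5.16 ± 0.73 (adjusted p = 4.87e-05) for S100a4 to 6.58 ± 1.23 (adjusted p = 0.00119) for Gda. Ltb4r1 was at 505, 318, 236 and 602 CPM in engrafted and 3.39, 2.92, 4.75 and 5.59 CPM in host libraries after LPS. It was at 3.07, 8.69, 10.1 and 12.98 and 4.45, 3.85, 3.12 and 7.06 CPM without LPS (difference 5.82 ± 0.78, adjusted p = 2.13e-05). Engrafted libraries with LPS lay far above those without, and host libraries covered overlapping ranges. Slpi averaged 3.8 CPM in engrafted and 0.939 CPM in host cells without LPS and its interaction had an adjusted p of 0.057, 0.054 and 0.16 without unchallenged host libraries 6, 7 and 8. Hp differed by 5.35 ± 0.83 (adjusted p = 0.000132), with means of 20.2 and 6.12 CPM without LPS. The shift of Saa3 was 3.33 ± 0.52 (adjusted p = 0.000134), from means of 93.9 and 69.7 CPM without LPS, where the difference was not called (0.39 ± 0.28, adjusted p = 0.34). Selplg shifted by 1.19 ± 0.23 (adjusted p = 0.0014), as its host mean was 7221 CPM without and 3035 CPM with LPS while the engrafted mean was 1070 and 1026 CPM.

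Towards host microglia, the largest shifts were those of Cmah, the aryl hydrocarbon receptor Ahr, the fatty acid transporter Cd36, the keratin Krt18, the glycoprotein Lrg1 and chromogranin Chga. Cmah, which makes the sialic acid Neu5Gc, was at 127, 111, 117 and 96.4 CPM in unchallenged engrafted libraries and had 0 reads in all 4 engrafted LPS libraries. Host libraries held at most 1.19 CPM of it with LPS, so that both populations had next to no Cmah reads after LPS (exact permutation test, p = 1.0). It was 1 of 3 genes with too few reads for the fit that were tested in this way, each two-sided with a smallest possible p of 0.029. Cd36 was at 58.4, 80.0, 23.5 and 66.8 CPM in unchallenged engrafted libraries and at 3.29, 1.2, 1.28 and 2.91 against 0, 0.973, 4.75 and 1.4 CPM after LPS (exact permutation test, p = 0.77, adjusted p = 1.0 over the 3 genes). The macrophage galactose lectin Mgl2 went the same way, at 25.6, 97.3, 30.2 and 63.0 CPM in unchallenged engrafted libraries and 2.19, 2.4, 1.28 and 2.91 against 0, 0.973, 1.19 and 0 CPM after LPS (exact permutation test, p = 0.029, adjusted p = 0.0857). Fitted shifts of genes without reads in a group depend on a small added count, and those of Cmah, Cd36, Krt18 and Chga did not pass without host LPS library 3 (adjusted p = 1.0, 0.18, 0.052 and 0.14), nor that of Chga without any 1 of 7 further libraries. Ahr was at 59.4, 45.2, 28.5 and 46.4 CPM in engrafted libraries and had no host read without LPS. It was at 69.1, 61.3, 52.5 and 26.2 against 16.9, 22.4, 8.32 and 6.98 CPM after LPS (log2 fold change 1.95 ± 0.34, adjusted p = 0.00043). The difference was -6.28 ± 1.03 (adjusted p = 0.00034). Lrg1 was at 60.4, 42.0, 53.8 and 122 CPM in engrafted and 72.2, 73.9, 124 and 173 CPM in host libraries after LPS and not called (-0.75 ± 0.32, adjusted p = 0.13). It passed the rule without engrafted library 4 (-1.04), and its host mean was 0.252 CPM without LPS (difference -5.03 ± 1.11, adjusted p = 0.00565). The proton-sensing receptor Gpr65 was at 573, 362, 458 and 434 CPM in engrafted and 37.1, 26.0, 32.7 and 26.2 CPM in host libraries without LPS. It was at 374, 264, 394 and 154 against 419.9, 327, 444 and 426 CPM after LPS, where it was not called (-0.42 ± 0.25, adjusted p = 0.29). The difference was -4.34 ± 0.33 (adjusted p = 1.43e-09), host libraries with and without LPS lying apart and engrafted libraries overlapping.

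Of genes called in both settings, 6 had opposite directions, among them Ccl6, Capg, Ceacam1 and Ch25h. The actin-capping protein Capg was at 819.8, 639, 546 and 748 CPM in engrafted and 158, 192, 216 and 230.4 CPM in host libraries after LPS (1.80 ± 0.21, adjusted p = 4.65e-06). It was at 74.7, 93.9, 88.8 and 77.9 against 187, 164, 146 and 223 CPM without LPS (-1.10 ± 0.15, adjusted p = 3.61e-06). The adhesion molecule Ceacam1 was at 47.2, 54.0, 44.8 and 102 against 9.03, 11.7, 10.7 and 9.78 CPM after LPS (2.49 ± 0.32, adjusted p = 1.49e-05). It was at 10.2, 10.4, 16.8 and 18.5 against 38.5, 29.8, 31.9 and 24.2 CPM without (-1.17 ± 0.30, adjusted p = 0.0044). The order of both populations was reversed in every library for both genes. Ch25h, higher in host microglia after LPS, had a log2 fold change of 1.06 ± 0.27 (adjusted p = 0.00391) without LPS, a difference of -3.71 ± 0.81 (adjusted p = 0.00481).

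**Figure D5:**
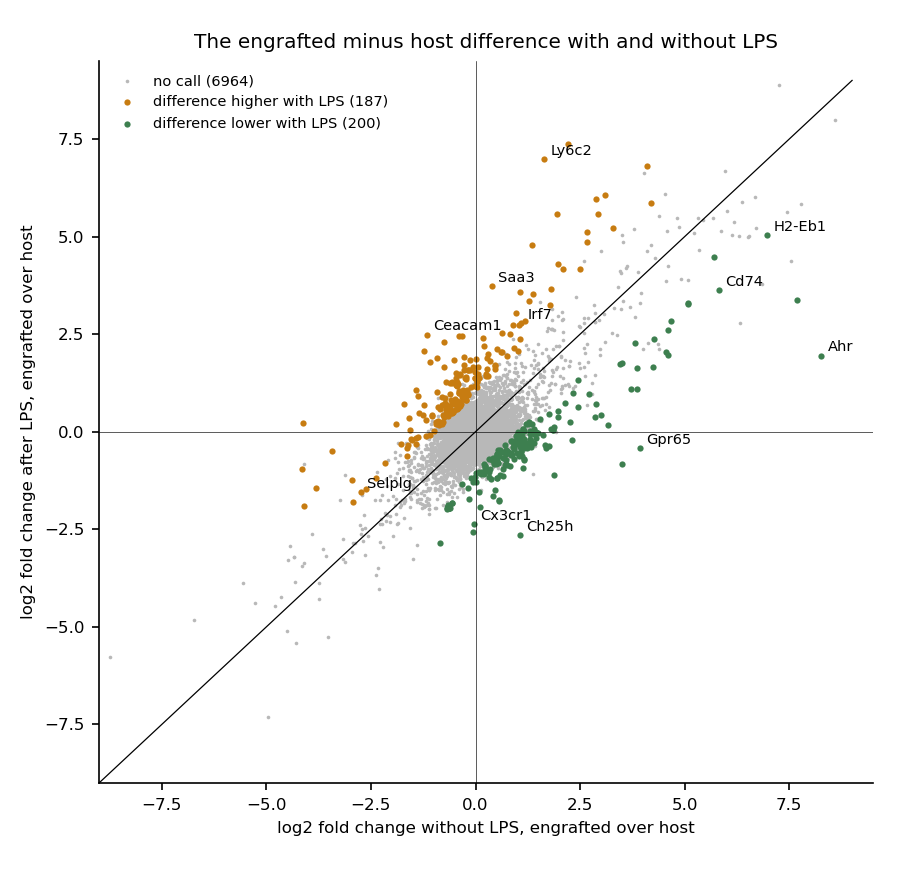
Log2 fold change of engrafted over host cells without LPS (x axis) and with LPS (y axis) for 7351 genes tested in both settings, with the line of equality; 1 gene is left out. Orange genes (187) shifted towards engrafted cells with LPS and green genes (200) towards host microglia, as tested by the interaction term. Saa3, Ly6c2 and Irf7 lay above the line, and Cx3cr1, Gpr65, Ahr and Ch25h below it.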

How the data were processed

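Engrafted and host cells were sorted from the same brains and profiled with 3′ end RNA-seq libraries derived from the MARS-seq method. The deposited values are raw read counts on exons per gene, which the authors made by aligning reads to mm9 and counting with HOMER without normalization. The submitters' processing notes list HISAT 0.1.5, whereas the study's methods name another release of this aligner. Uniquely mapped reads were counted on the sense strand. Reads of near-identical or overlapping genes can be split uncertainly.

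Counts were scaled by TMM over all 16 libraries for CPM and within each fit for tests. Genes were kept by filterByExpr (minimum count 10, minimum total 15) and tested with edgeR 4.0.16 in R 4.3.3 (quasi-likelihood test, prior count 0.125), engrafted against host, without a mouse term. Both sorts of a mouse come from the same animal, and their deviations from the group means correlated by 0.146, 0.0173, 0.211 and 0.124 in mice 1 to 4. Replicates are separate mice. Intervals and limits of 3 reads cover counting error only. The tests were checked on simulated counts. Alternatives used DESeq2 1.42.0, limma 3.58.1, other scalings and filters, the mouse as a block, all libraries in 1 fit, and each library left out.

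Named genes are the 8 largest folds per direction at 50 CPM or more without overlap and the 8 largest level differences per direction. They are also up to 4 called members per direction of each list and the 6 largest interactions per direction. Genes that the study names for LPS, together with Apoe and Axl, complete them. Members and lists were chosen with earlier results of these data known. S100a9, Capg, Ceacam1, Cdkn1a, Socs3, Msr1, Ms4a6c, Psmb10, Stab1 and the Oas3 and Isg20 promoters were picked after their values were seen. Some genes named by these rules are not reported here. RefSeq promoters came from GRCm38.p6, gene positions from an mm9 annotation.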

Additional observations from a re-analysis of the deposited data

Results flagged for a closer look

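A library lay apart from the other 3 of its group (Dixon's gap at the 95% level) in 25 of 286 groups examined. About 1 in 20 groups would do so by chance. Where only 1 library of a group has reads, the gap is always at its largest, and this rate does not apply. That was the case for Chil3, Fabp5 and Cmah in host and Rxrg in engrafted cells. In engrafted library 4 these were Apoe (93090 CPM), Klf2 (2212), Cd74 (2957), Ceacam1 (101.9) and Chga (64.0), this being the library with the fewest reads and most red blood cell transcripts, whose part in these values was not tested. In engrafted library 3, Fth1 (15130 CPM), Oas3 (43.5), Isg15 (307.4) and H2-Q7 (102.5) were lowest. The remaining engrafted values were Klk8 (14.3 CPM) and Fabp5 (46.1) in library 1, and Rxrg (1.20), C5ar1 (67.3) and S100a9 (2.40) in library 2. In host libraries they were Chil3 (1.13 CPM) in library 1, P2ry12 (470.8), Trem2 (1435), H2-Q7 (134.2), Fabp5 (0.973) and Itga4 (5.84) in library 2, Tlr4 (38.0), H2-Oa (63.0) and Cmah (1.19) in library 3, and Ifitm3 (88.0) and Klf2 (525.1) in library 4.

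The engrafted minus host difference changed with LPS by the interaction test of edgeR for 43 named genes, each value being the log2 fold change with LPS minus that without. It was more towards engrafted cells for Gda (6.58), Slpi (5.84), Ltb4r1 (5.82), Hp (5.35), Ly6c2 (5.35), S100a4 (5.16), Cfb (4.69), Ceacam1 (3.64), Saa3 (3.33), Ccl6 (3.29), Cdkn1a (2.94), Capg (2.89), Ccl5 (2.79), Lgals3 (2.65), Pirb (2.19), Nr4a1 (2.18), Socs3 (2.10), Isg20 (1.91), Oas3 (1.83), Isg15 (1.81), Irf7 (1.70), Fcgr2b (1.63), Tmem119 (1.24) and Selplg (1.19). It was more towards host microglia for Cmah (-9.66), Ahr (-6.28), Cd36 (-5.38), Krt18 (-5.27), Lrg1 (-5.03), Chga (-4.38), Gpr65 (-4.34), Ch25h (-3.71), Lilrb4a (-2.79), Dab2 (-2.61), Msr1 (-2.58), Ms4a6c (-2.50), C3ar1 (-2.33), Cx3cr1 (-2.32), Cd74 (-2.20), Cybb (-2.01), H2-Eb1 (-1.95), Tlr2 (-1.69) and Ccl12 (-1.49). Sizes for genes without reads in a group, such as Cmah and Ahr, depend on a small added count. As given above, Cmah, Cd36, Krt18 and Chga did not pass without host LPS library 3. Slpi did not pass without unchallenged host library 6, 7 or 8.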

How the results depend on the processing

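Of 138 named genes with a log2 fold change after LPS, 118 stayed on the same side of the thresholds in every alternative, and of 123 called, 119 were still called with totals (not Fth1, Il1b, Lilrb4a and Nfkbie). Without a filter for low counts 857 genes were called higher in engrafted cells. With at least 10 reads in every library, which tests fewer genes, 245 were called higher in engrafted cells and 136 in host microglia, 4592 were within 2-fold, and 141 and 110 differences were higher and lower with LPS. Leaving out 1 library, the count of lower differences ranged from 135 (without host LPS library 3) to 245, being 143 without unchallenged host library 8. The paired fit, with the mouse as a replicate block, gave 539 and 343 calls, 856 of them among the 868, and apart from Ccl3 (-0.94) and Fcgrt changed no call named in the report. Directions reversed for Tmem119 after LPS without host library 4 (0.029, other libraries left out giving down to -0.235) and, with totals, for Tlr7 (-0.063) and Isg15 (-0.058) without LPS; none of these was called. The causes were not tested. With DESeq2, the adjusted p was 0.088 for Il1rn, 0.063 for Klf2, 0.055 for Sod2 and 0.11 for the interaction of Chga; with limma, it was 0.064 for Ch25h, 0.057 for Klf2 and 0.074 for Nfkbie. Nlrc5 (0.92) and Lilrb4a (0.99) fell within 2-fold with limma, and Lilrb4a (0.94) and, without LPS, Tlr2 (0.96) and Ch25h (0.98) with totals. The dispersion was higher in the LPS than in the unchallenged libraries (biological coefficient of variation 0.212 against 0.147), without a mouse term and with engrafted library 4 included. The part of that library in this value was not tested. After LPS 51 genes were called with at most 3 reads in every host library and 14 with at most 3 in every engrafted library, for which depth limits the fold.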
